A study of Mus musculus with 6 samples.

Results

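The genes described here are 33 antiviral genes of the type I interferon response, measured in macrophages grown from mouse bone marrow and given a chimeric RANK receptor whose IVVY motif was intact or mutated. The members are a named list, and each was represented by the probe set that the platform annotation gives to that gene alone, taking the one with the highest mean over the 6 arrays. Of the 33, 31 had such a probe set, out of 18193 genes that had one, and 30 of the 31 were above a filter on dim probe sets. Isg15 and Ifi44 are not analysed here. The exception at the filter was Mx2, a GTPase gene. It read between 5.79 and 27.0 in the mutant group and between 5.69 and 36.1 in the wild-type group.

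The arrays were 6 Affymetrix Mouse Genome 430 2.0 arrays. All cells came from c57BL/6 mice lacking both TNF receptors (TNFR1-/-R2-/-), were infected with a retrovirus that encoded the chimeric receptor, and were selected with puromycin (2 ug/ml) for 3 days. The receptor had the outer part of mouse TNFR1 and the membrane and inner parts of mouse RANK, so that TNF could switch on RANK signalling. The wild-type group (BM_wt, n = 3 arrays) had the RANK sequence unaltered. The mutant group (BM_mutant, n = 3 arrays) had inactivating mutations in its IVVY motif, a stretch of the RANK tail known to commit macrophages to become osteoclasts, and the comparison asks which genes depend on that motif. Both groups received M-CSF (44 ng/ml) and TNF (10 ng/ml) for 24 hours, and no array of cells without retrovirus or without TNF is used here. RNA of 6 dishes was pooled for an array, and the 3 arrays of a group came from 3 independent assays, so arrays of the same number form a pair. The p-values of the main fit below set the group difference against the spread between these assays. Those of the fit with the replicate number as a block, and of the test between assays, use the scatter left after assay and group. The labels give no age for the mice and do not say whether mice were shared between assays. The values of Xist and Eif2s3y, given further below, bear on the second point. The median intensity was 8.86 to 9.38 on the 6 arrays and the 75th percentile 160.5 to 164.2. All 9 macrophage markers were above the filter on dim probe sets.

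Type I interferons signal through the receptor chains IFNAR1 and IFNAR2 and the kinases JAK1 and TYK2. These lead STAT2 and IRF9 to join a complex that binds the interferon-stimulated response element of antiviral genes. IRF7, itself an interferon-stimulated gene, amplifies the production of interferon, and USP18 dampens the receptor. In macrophages that become osteoclasts, RANK signalling is known to induce interferon beta, which restrains osteoclast formation.

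The response element was looked for in the RefSeq promoter windows (GRCm38.p6), each 300 bases long, from 250 bases before to 50 bases after a transcription start. Its core was written GAAA, 2 bases of any kind and GAAA again, and was searched on both strands, so that it can also read TTTC, 2 bases of any kind and TTTC. Of the 33 members 24 had at least 1 window, 30 windows in all, and 12 of the 30 windows held the core, against 3.44% of all 32851 windows. The 6 sequences below, chosen after the values were seen, carry the core upstream of the start in members that differed in their pattern. The mutant array of pair 2 read below its wild-type partner for Ifit1, Stat2 and Rsad2, and above it for Ifit3, Oas1a and Bst2. Each is printed 5′ to 3′ on the strand of its gene, and the capitals mark the core, which in Oas1a and Bst2 is an overlap of 2 matches.
Ifit1 (chr19:34640765-34640833, plus strand): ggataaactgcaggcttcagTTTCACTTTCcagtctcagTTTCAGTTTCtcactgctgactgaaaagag
Stat2 (chr10:128270256-128270305, plus strand): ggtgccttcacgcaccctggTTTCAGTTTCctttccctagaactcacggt
Rsad2 (chr12:26456543-26456592, minus strand): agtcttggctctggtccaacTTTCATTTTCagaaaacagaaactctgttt
Ifit3 (chr19:34583353-34583436, plus strand): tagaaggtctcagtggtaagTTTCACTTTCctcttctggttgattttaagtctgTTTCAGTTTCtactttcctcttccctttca
Oas1a (chr5:120907526-120907565, minus strand): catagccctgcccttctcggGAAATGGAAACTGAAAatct
Bst2 (chr8:71537567-71537622, minus strand): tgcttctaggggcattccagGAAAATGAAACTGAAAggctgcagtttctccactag

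In Ifit1 the 2 matches lie between 104 and 76 bases before the start, in Ifit3 between 156 and 113, and the matches of Ifit1 have the same letters as those of Ifit3. The match of Stat2 lies between 222 and 213 bases before the start, that of Rsad2 between 120 and 111. In Oas1a the matches end 5 bases before the start, and in Bst2 they lie between 130 and 115 bases before it. A gamma-activated site, the element of interferon gamma signalling, was searched as TTCNNNGAA, which reads the same on both strands, and was found in 6 of the 30 windows, against 8.3% of all windows. Matches of the response element and the gamma-activated site were counted separately, also where they overlap. Of the members above the filter, 10 had a window with the response element core and 12 had windows without it. In pair 2, 5 of the 10 and 5 of the 12 were lower in the mutant, and the pair medians over the 10 were -1.05, 0.04 and -0.56 on the log2 scale, against -0.76, 0.19 and -0.48 over the 12. No match in a window says only that these letters are not in it.

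The mean of each of the 30 antiviral genes was lower in the mutant (46.8% of all genes), but by an amount that differed between the assays. In pair 1 the mutant array read below the wild-type array for 30 of 30 genes, in pair 3 for 29 of 30, and in pair 2 for 14 of 30. Over all 10363 genes above the filter, 50.8%, 49.6% and 43.8% were lower in the mutant in pairs 1, 3 and 2. The median difference of the 30 genes was -1.04 in pair 1, -0.54 in pair 3 and 0.11 in pair 2, on the log2(intensity + 16) scale used for all differences here, while the medians over all genes were 0.00, 0.00 and 0.02. A difference of at least 1.5-fold towards the mutant being lower was seen for 25 of the 30 in pair 1, 10 in pair 3 and 2 in pair 2, against 2.33%, 3.75% and 4.77% of all genes. A pair is 1 array against 1, so a single pair has no replicate check. The RNA came from whole cultures, in which fewer cells of a type and less RNA per cell cannot be told apart.

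**Figure D1:**
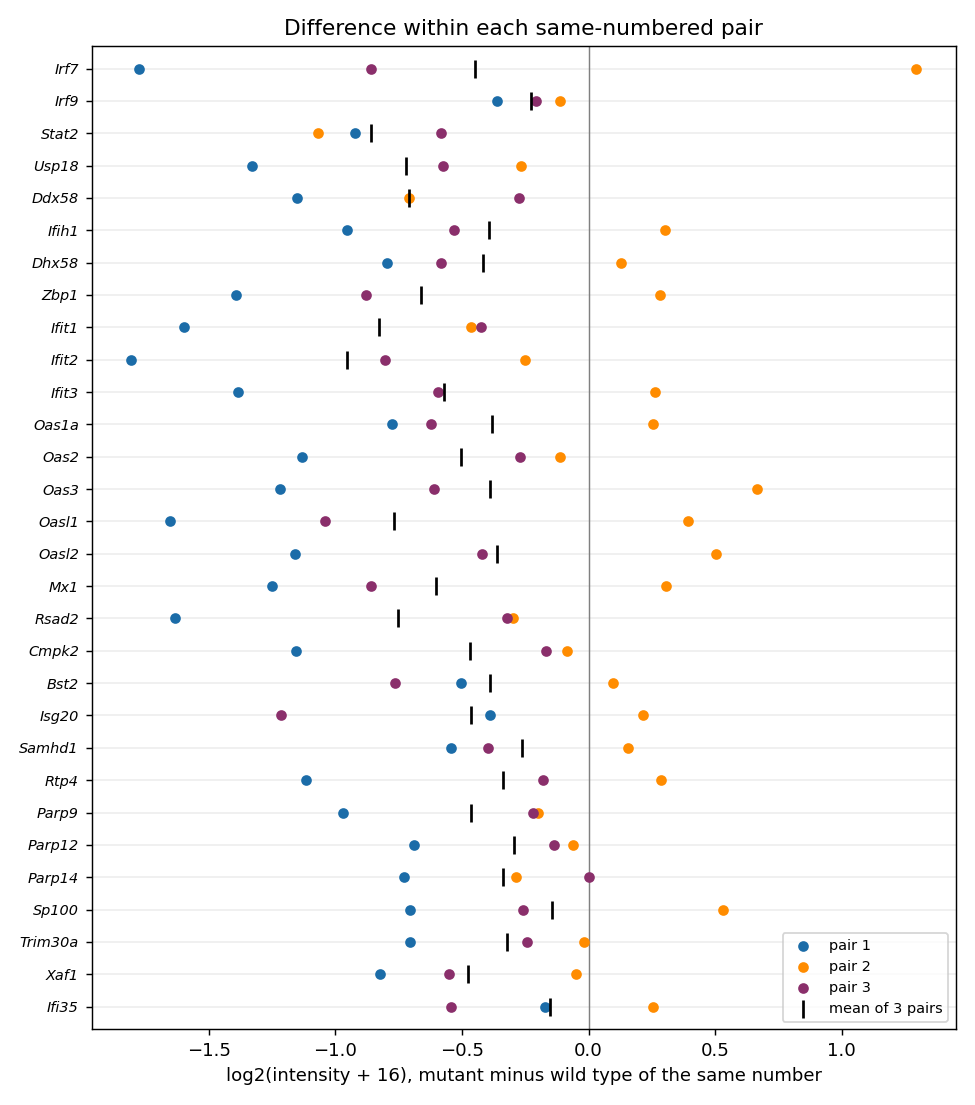
Difference between the mutant and the wild-type array of the same number on the log2(intensity + 16) scale (x axis) for the 30 genes above the filter (y axis), with 1 point per pair and a bar at the mean of the 3 pairs. The points of pair 1 lie below 0 for all 30 genes and those of pair 3 for 29, while 16 genes of pair 2 lie above 0, Irf7 the farthest at 1.29.

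In every pair the mutant was lower for 13 of the 30 genes and higher for 0, where these shares were 12% and 14.5% of all genes. The 13 were Irf9, Stat2, Usp18, Ddx58, Ifit1, Ifit2, Oas2, Rsad2, Cmpk2, Parp9, Parp12, Trim30a and Xaf1. The values of the 2 groups overlapped for all 30 genes, where 1.95% of all genes were lower and 1.36% higher in the mutant without overlap. By limma, two-sided with Benjamini-Hochberg adjustment over 22497 probe sets, 0 of the 30 genes passed at an adjusted p of 0.05, as did 0% of all probe sets. At an unadjusted p under 0.05 there were also 0 of the 30 in this fit, against 0.649% of all probe sets lower in the mutant. The median difference over the 30 genes was -0.46, with standard errors (SE) of 0.27 to 1.49 for single genes. With the replicate number as a block in limma the SE were 0.09 to 0.65, and 0 of the 30 passed after adjustment (smallest adjusted p = 0.859). At an unadjusted p under 0.05 the limma fit with the block had 5 of the 30, all lower in the mutant, against 2.78% of all probe sets lower and 2.5% higher. These 5 were Stat2, Ddx58, Usp18, Ifit1 and Ifit2. With an assay left out, the mutant was lower in both remaining pairs for 13 of the 30 without assay 1 (23.2% of all genes), 29 without assay 2 (23% of all genes) and 14 without assay 3 (24.4% of all genes). Without wild-type array 3 the median difference turned to 0.18, and without mutant array 1 it was -0.01. It was -1.02 without mutant array 3, -0.95 without wild-type array 2 and -0.21 without mutant array 2, and -0.19 or -0.71 without both arrays of assay 1 or of assay 2.

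Intensities of single genes are given in the order of arrays 1, 2 and 3, for the mutant and then for the wild type. The 4 regulators of the response differed among themselves in pair 2. Stat2, which encodes a subunit of the factor that binds the response element, read 299, 99.6 and 891 against 580.4, 226 and 1342. Each mutant array was below its own wild-type partner, though the groups overlapped because both arrays of assay 3 were high. Its pair differences were -0.92, -1.07 and -0.58, with a mean of -0.86 ± 0.97 SE, or ± 0.13 SE with the block (limma with the block, unadjusted p = 0.00249, adjusted p = 0.859). A second Stat2 probe set differed by -1.48, -0.31 and -0.44. Irf9, which gives the same complex its DNA binding, read 742, 710.3 and 1127 against 958, 769 and 1303. It was lower by 0.36, 0.11 and 0.21 in the 3 pairs and had the smallest SE of the 30 genes.

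Irf7, the interferon-induced amplifier of interferon production, had the widest spread between pairs. Its intensity was 337, 881 and 1656 against 1193, 349.6 and 3016. The mutant was thus lower in pairs 1 and 3, by -1.78 and -0.86, and higher in pair 2, by 1.29. By its brighter probe set Stat2 had its lowest difference in pair 2, where Irf7 had its highest. The second Stat2 probe set had its lowest difference in pair 1. Usp18, the protease that removes ISG15 from proteins and restrains the receptor, read 234, 487 and 1820.4 against 611, 588 and 2719.7, and was lower in all 3 pairs.

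The cytosolic RNA sensors RIG-I and MDA5, encoded by Ddx58 and Ifih1, bind viral RNA and start the induction of interferon. Ddx58 read 279.6, 332 and 1194 against 640.3, 552 and 1447. The pair differences were -1.15, -0.71 and -0.27, and its other 2 probe sets were also lower in all 3 pairs. Ifih1 read 736, 1026 and 3138 against 1439.7, 829.7 and 4544, lower in pairs 1 and 3 and higher in pair 2. Dhx58, which encodes the regulatory relative LGP2, and Zbp1, a sensor of Z-form nucleic acids that can trigger cell death, had the same order of signs as Ifih1. Their pair differences were -0.80, 0.13 and -0.58 for Dhx58 and -1.39, 0.28 and -0.88 for Zbp1. A second, dimmer probe set of each was lower in pair 2 as well, by 0.68 for Dhx58 and 0.09 for Zbp1.

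The IFIT proteins bind foreign RNA and block its translation, and Ifit2 had the largest mean difference of the 30 genes. Ifit2 read 994, 943 and 12112 against 3519.7, 1125 and 21189. It was lower in all 3 pairs, by 1.81, 0.25 and 0.81. The mean was -0.95 ± 1.49 SE, or ± 0.33 SE with the block (limma with the block, unadjusted p = 0.0458, adjusted p = 0.859). Ifit1 read 202, 420.0 and 2337 against 645, 586 and 3140.3, with pair differences of -1.60, -0.46 and -0.42. Ifit3 lies next to Ifit2 on chromosome 19 with 0 protein-coding genes between them. It read 623, 881 and 5346 against 1651, 731 and 8087, and was higher in the mutant in pair 2, by 0.26.

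The OAS enzymes make short adenylate chains that switch on the RNA-degrading enzyme RNase L, and Oasl1 and Oasl2 encode relatives with ubiquitin-like domains. All 5 were lower in pairs 1 and 3, and 1 of the 5, Oas2, was also lower in pair 2. Oasl1, which restrains the translation of IRF7, read 98, 226 and 604 against 343, 169 and 1260.1, with pair differences of -1.65, 0.39 and -1.04. Oas3 read 201, 489.7 and 862 against 489.6, 303 and 1323, with pair differences of -1.22, 0.66 and -0.61. Oas1a differed by -0.78, 0.25 and -0.62, Oas2 by -1.13, -0.11 and -0.27, and Oasl2 by -1.16, 0.50 and -0.42. The median of the family was 0.39 in pair 2. The probe sets of OAS genes may share sequence with close copies of these genes, which was not tested.

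Among the effectors, Rsad2 encodes viperin, an enzyme that makes a chain-terminating nucleotide, and Cmpk2 a mitochondrial nucleotide kinase that supplies its substrate. The genes are neighbours on chromosome 12, with 0 protein-coding genes between them, and both were lower in all 3 pairs. Rsad2 read 329, 809 and 5291 against 1054, 999 and 6613, and its pair differences were -1.63, -0.30 and -0.32. Its other 2 probe sets were lower in all 3 pairs too. Cmpk2 read 229.9, 368 and 1924 against 532, 391 and 2165, with pair differences of -1.15, -0.09 and -0.17. The remaining effectors were lower in pairs 1 and 3 and higher in pair 2.

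Mx1, a GTPase gene whose protein was not measured, read 85.9, 116 and 932 against 227, 91.0 and 1703. Bst2, encoding tetherin, which holds budding virus on the cell surface, read 3349.6, 3551 and 8026 against 4752, 3316 and 13661. Samhd1, which depletes nucleotides, differed by -0.54, 0.16 and -0.40, and its 5 probe sets gave the same signs. Rtp4, a chaperone of membrane receptors with antiviral activity, differed by -1.12, 0.29 and -0.18. Isg20, an RNA exonuclease, was dim on 4 arrays, at 17.7 to 28.2, and reached 105 on mutant array 3 and 265 on wild-type array 3, so its difference of -1.22 in pair 3 is the one measured above the dim range.

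The PARP family members transfer ADP-ribose or, for Parp9, act in a complex with a ubiquitin ligase. Parp9 read 557, 787 and 2344 against 1109, 905 and 2733, and Parp12 1483, 1837 and 3786 against 2405, 1918 and 4162, and both were lower in all 3 pairs. Parp14 was lower in pairs 1 and 2, by 0.73 and 0.29. In pair 3 its intensities were 3683 and 3679 in mutant and wild type, the 1 member that was not lower there. A second, dimmer probe set of Parp14 differed by -0.72, 0.27 and -0.50, and so was lower in pair 3. Of the others, Trim30a, a ubiquitin ligase that dampens Toll-like receptor signalling, and Xaf1, a pro-apoptotic factor, were lower in all 3 pairs, though by only 0.02 and 0.05 in pair 2. Sp100, a component of nuclear bodies, differed by -0.71, 0.53 and -0.26. Ifi35, which forms a complex with NMI, differed by -0.17, 0.25 and -0.54 and had the smallest difference of the 30 genes in pair 1.

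Counts over all probe sets of the members, which include those already counted for each gene, were similar. The 31 genes had 51 probe sets, of which 49 were above the filter and 13 genes had more than 1. Of the 49, 49 were lower in pair 1, 48 in pair 3 and 23 in pair 2, and 22 were lower in every pair. In pair 2 the probe sets of 1 gene disagreed in sign for Dhx58, Zbp1, Parp14, Sp100, Trim30a and Xaf1, which leaves their direction there unsettled. Those of Parp14 also disagreed in pair 3.

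The level of the antiviral genes differed more between assays than between the groups. For all 30 genes both arrays of assay 3 were above the other 4, where this held for 15.8% of all genes. Wild-type array 3 was the highest for 29 of the 30 (13.3% of all genes) and mutant array 1 the lowest for 25 (18.6% of all genes). The mean of assay 3 over that of assays 1 and 2 was 1.52-fold for Irf9, 11.4-fold for Ifit2, 9.33-fold for Mx1 and 7.96-fold for Rsad2, with a median of 3.37-fold over the 30 against 0.940-fold over all genes. By a limma F test between the 3 assays with the group as a term, chosen after the values were seen, 23 of the 30 genes passed at an adjusted p of 0.05, as did 23.3% of all probe sets. In the limma fits without mutant array 1, mutant array 3, wild-type array 1 or wild-type array 3, or without both arrays of assay 1 or of assay 3, 0 of the 30 and 0% of all probe sets passed. At an unadjusted p under 0.05 the limma F test had 27 of the 30 without assay 1 and 1 without assay 3. Without the filter on dim probe sets 0 of 31 passed that test (0.575% of all probe sets), with 24 at an unadjusted p under 0.05. The share of all probe sets at this unadjusted threshold was not computed, so these unadjusted counts cannot be read as particular to the antiviral genes. Assay accounted for a median of 86.9% of a gene's sum of squares over the 30 genes (63.0% for Irf7 to 93.1% for Samhd1) and group for 5.82%, against 77.3% and 4.52% over all genes.

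**Figure D2:**
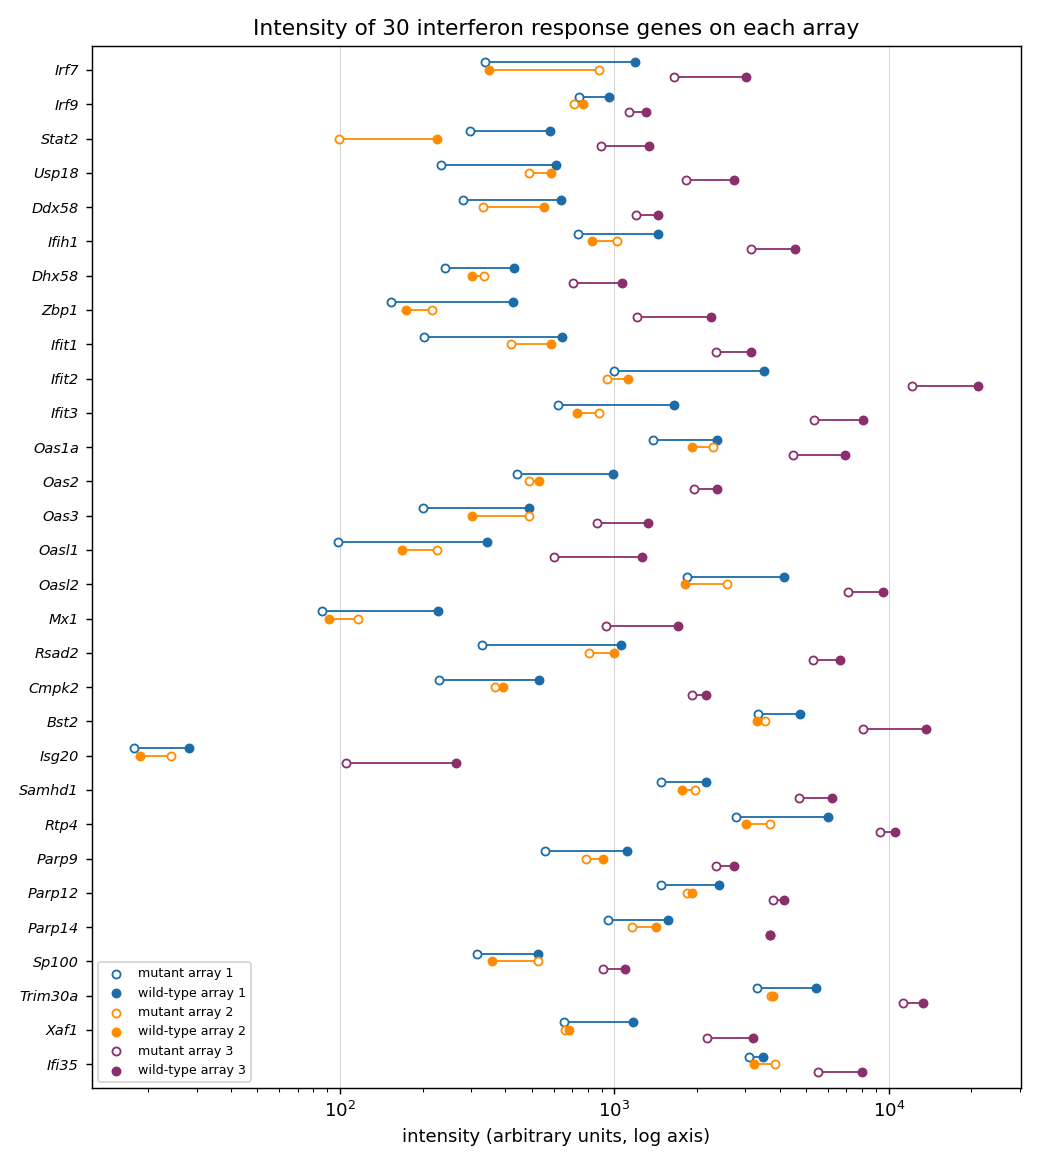
Intensity on a log axis (x) of the 30 genes above the filter (y), with open circles for mutant and filled circles for wild-type arrays, 1 colour per assay, and a line that joins the arrays of a pair. Both arrays of assay 3 lie to the right of the other 4 for all 30 genes, and in assay 1 the open circle is left of the filled one for every gene.

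In pair 2 both arrays stood apart from their counterparts of assay 1, in opposite directions. Wild-type array 2 was below wild-type array 1 for 30 of the 30 genes, by a median of 0.52 on the log2 scale. Mutant array 2 was above mutant array 1 for 27 of the 30, by a median of 0.43. Over all genes these medians were 0.08 and 0.10, both towards array 2. Relative to each gene's mean over the 6 arrays, the 30 genes had medians of -1.0, -0.60 and 0.94 on mutant arrays 1, 2 and 3 and -0.09, -0.69 and 1.38 on wild-type arrays 1, 2 and 3. The wild-type array of assay 1 was thus closer to the middle of the series than either array of assay 2.

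**Figure D3:**
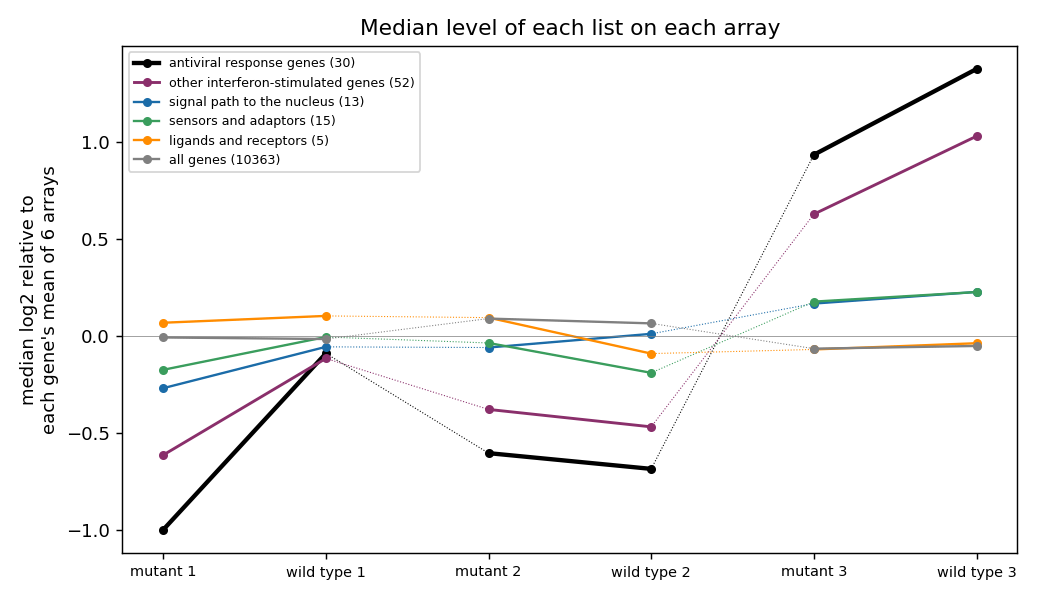
Median over the genes of each list of the log2(intensity + 16) value relative to the gene's mean over the 6 arrays (y axis) on each array (x axis), with a solid line within a pair and a dotted line between pairs. The antiviral genes run from -1.0 on mutant array 1 to 1.38 on wild-type array 3, while all genes stay between -0.06 and 0.09.

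Other features of the cultures moved with the same arrays. Of 8 stromal marker genes, 5 were above the filter, and both arrays of assay 3 were above the other 4 for all 5. The summed intensity of the 8 stromal genes was 62.3, 157 and 4882 on mutant arrays 1, 2 and 3 and 59.9, 79.6 and 3505 on wild-type arrays 1, 2 and 3, while Lum, a stromal proteoglycan gene, was at the floor on all 6. Xist, an RNA made from the silenced X of females, read 3308 to 9152 in assays 1 and 2, but 10.5 on mutant array 3 and 8.82 on wild-type array 3. Eif2s3y, a gene of the Y chromosome, read 308, 349 and 1368 against 12.9, 227 and 1436, so it differed between the assays and also within pair 1, by 3.48 on the log2 scale, and within pair 2, by 0.58. By these genes assay 3 held cells of males, while assays 1 and 2 held cells of females, so the set of donors was not the same. Both arrays of pair 1 were high in Xist, but Eif2s3y was dim on the wild-type array. The arrays of pair 1 were therefore not matched for the sex of their cells. The part of stromal cells and of the sex of the mice in the antiviral genes, in their level by assay or their difference within pairs, was not tested. Of 7 listed markers of neutrophils and their precursors, S100a8 was above the filter and was low in assay 3, at 649, 430.5 and 128 against 604, 677 and 212. Of 4 listed erythroid and megakaryocyte markers this held for Pf4, at 10628, 15254 and 5197 against 9857, 9592 and 4460. Their part was not tested. Siglech, which marks plasmacytoid dendritic cells, the strongest producers of interferon, read at most 5.04. Of the 4 markers listed for these cells 2, Tcf4 and Ccr9, were above the filter, but Ccr9 was dim, at 11.2 to 11.8 on the 6 arrays. Tcf4, which other cells also express, read 2401, 2721 and 5470 against 3416, 1936 and 4685, and the 4 summed to 1957 to 5491. The 4 dendritic cell markers and the 3 T and NK cell markers matched were at 8.47 or less and 7.60 or less. Of 8 osteoclast markers 7 were above the filter and lower in the mutant in every pair, and the summed intensity of the 8 was 1117 to 1879 for the mutant and 8534 to 26865 for the wild type, highest on wild-type array 3. The part of this difference in osteoclast genes in the antiviral genes was not tested.

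The other genes of the pathway are given from 4 lists, from the ligands to the stimulated genes. Ifnb1, which encodes interferon beta, read 4.89 to 6.18 over the 6 arrays, below the filter, and the 4 interferon alpha genes matched were also below it. The receptor gene Ifnar1 read 676, 893 and 547 against 694, 604 and 515, and Ifnar2 2292, 2177 and 2081 against 2485, 1927 and 2180.6. Neither receptor gene was high in assay 3. Of 12 ligand and receptor genes, 5 were above the filter, with pair medians of -0.07, 0.24 and 0.04 in pairs 1, 2 and 3. Il10rb, a receptor chain shared with interleukin 10, was higher in every pair, by 0.01, 0.31 and 0.04, and Ifngr2, a chain of the interferon gamma receptor, was lower in every pair, by 0.11, 0.76 and 0.04.

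Of 15 genes of the path from the receptor to the nucleus, 13 were above the filter, with pair medians of -0.17, 0.04 and 0.04. The kinase gene Jak1 differed by -0.12, -0.27 and 0.18, the phosphatase gene Ptpn6 by -0.05, 0.14 and 0.11, and the myeloid factor Irf8 by -0.02, -0.07 and 0.12. Irf1, a factor that interferons induce, was the 1 gene of this list lower in every pair, by 0.86, 0.35 and 0.29, and Kpna1, an importin that carries proteins into the nucleus, the 1 gene higher in every pair, by 0.34, 0.14 and 0.20. Of 18 sensors and adaptors that induce interferon, 15 were above the filter, with pair medians of -0.24, 0.11 and -0.05. Irf3, the factor that starts interferon transcription, was higher in every pair, by 0.10, 0.26 and 0.10, and Myd88 and Aim2 were lower in every pair. Tlr7, a sensor of single-stranded RNA, read 1979, 1969 and 4139 against 2371, 1444 and 3707, high in assay 3 in both groups. Irf5, also bright, read 3198, 2632 and 1575 against 3793, 2083 and 1678, low in assay 3 in both groups. The mean of assay 3 over that of assays 1 and 2 was 2.04-fold for Tlr7 and 0.57-fold for Irf5. For the bright genes Trim25 and Tbk1 it was 1.22-fold and 1.40-fold.

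Of 60 listed interferon-stimulated genes that are not among the 33, 52 were above the filter. In pairs 1, 2 and 3 the mutant was lower for 49, 22 and 47 of the 52, against 50.8%, 43.8% and 49.6% of all genes. The medians were -0.51, 0.07 and -0.40. In every pair 18 were lower and 0 higher (12% and 14.5% of all genes). Both arrays of assay 3 were above the other 4 for 44 of the 52, against 15.8% of all genes. This also held for 7 of the 13 genes of the path to the nucleus, 6 of the 15 sensors and adaptors and 0 of the 5 ligand and receptor genes. By limma 0 genes of these 4 lists passed after adjustment, with or without the block. At an unadjusted p under 0.05 limma gave 0 in each list without the block, and 10 of the 52, 1 of the 13, 0 of the 15 and 0 of the 5 with it, where 2.78% of all probe sets were lower and 2.5% higher. The transmembrane restriction factor gene Ifitm3 read 18153, 17546 and 31073 against 22893, 16612 and 34788, with pair differences of -0.33, 0.08 and -0.16. Ly6e, a surface protein gene, differed by -0.68, 0.20 and -0.53, Ifi27l2a by -1.04, 0.92 and -0.35, and Ifitm2 by -0.19, -0.29 and 0.01. The lists were written with earlier results of these data known, so these counts are a description.

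**Figure D4:**
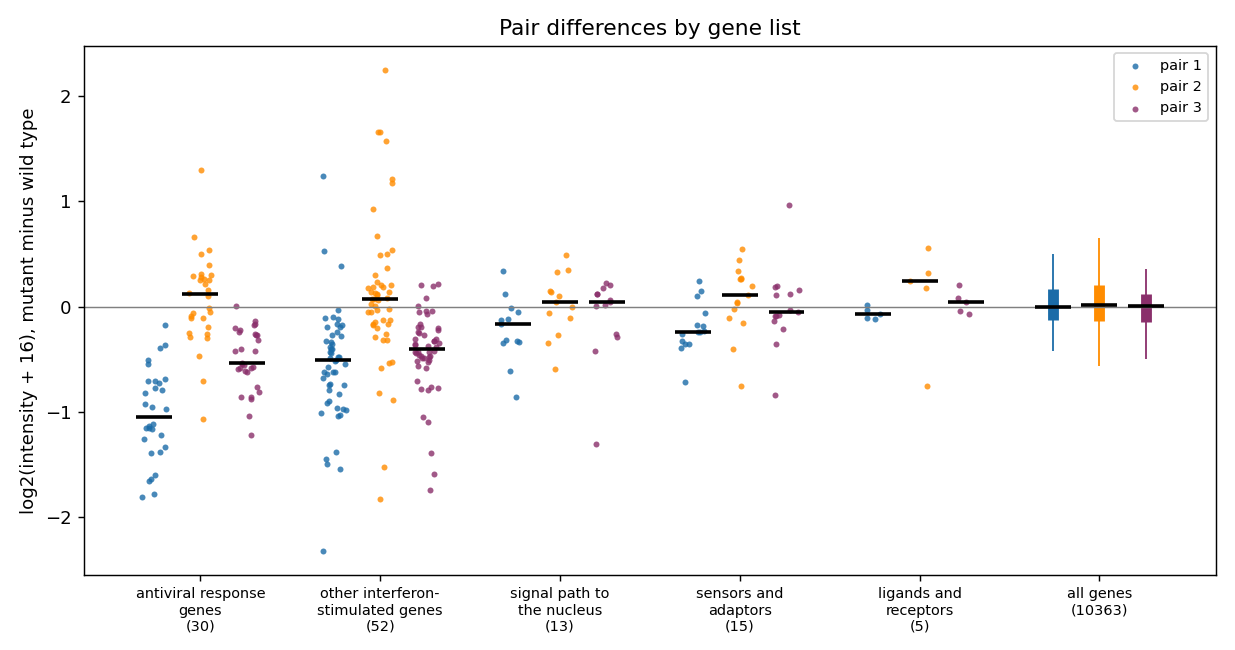
Pair differences on the log2(intensity + 16) scale (y axis) for the genes above the filter in each list (x axis, number of genes in brackets), with 1 point per gene and pair and a black bar at the median; for all genes the thick line spans the 25th to 75th and the thin line the 5th to 95th percentile. The medians of the antiviral genes are -1.04, 0.11 and -0.54 in pairs 1, 2 and 3, those of the other interferon-stimulated genes -0.51, 0.07 and -0.40, and those of the ligands and receptors -0.07, 0.24 and 0.04.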

How the data were processed

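RNA of mouse bone marrow macrophages was measured on 6 Affymetrix Mouse Genome 430 2.0 arrays, 3 per group, with groups and replicate numbers from the sample titles. The deposited values are intensities on a linear scale, made with GCOS and GCRMA per the submitters' processing notes, which give no version. GCRMA corrects background and makes arrays alike in distribution, which presses dim probe sets towards a floor and can hide a shift of all genes. Of 45101 probe sets 64 controls were left out. A probe set was kept if, on 3 or more of the 6 arrays, it exceeded that array's median (22497), and log2(intensity + 16) was tested with limma 3.58.1 (lmFit, eBayes) in R 4.3.3, mutant minus wild type, two-sided, without a block. Fold changes of dim genes are understated on this scale. The limma group fit, without and with the replicate block, and the F test between assays were run on simulated data. The counts by pair, the gene lists and the motif search were not tested in this way. All 31 members matched were found by gene identifier in the RefSeq table.

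The members and lists were chosen with earlier results of these data known. Named were all members, up to 4 genes of each list with the highest mean, Ifnb1, Ifnar1, Ifnar2 and Irf3. Other named genes were chosen after their values were seen. The labels describe independent assays, and the deviations of same-numbered arrays from their group means correlated at 0.797, 0.671 and 0.845 across probe sets, and the arrays were therefore treated as pairs. The number of arrays limits the precision.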

Additional observations from a re-analysis of the deposited data

How the results depend on the processing

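No antiviral gene passed the limma test under any of the alternatives run, and the 1 probe set that passed with a random replicate block was no member. The count lower in every pair was 13 for pseudocounts of 1 and 64 and the filter at the 70th percentile or none. It was also 13 for quantile normalization and for the mean of a gene's probe sets above the filter. With that mean the 13 were not all the same genes. Trim30a and Xaf1 were then higher in pair 2, while Dhx58 and Parp14 were lower in every pair. Without both arrays of an assay there were 13 to 29. The median difference lay between -0.46 and -0.40 under these settings and between -1.02 and 0.18 when arrays were left out. Leaving out 1 array leaves its assay on 1 side only, so the assay difference then enters the group difference. The count of genes that differed between assays was 0 without the filter, where more probe sets are tested, and 0 to 28 when arrays were left out. With arrays left out, the log2 difference changed sign for 25 of the 30 genes. The other 5 kept their sign but came close to 0 in some cases, at -1.61 to -0.12 for Stat2, -1.35 to -0.29 for Ddx58, -1.51 to -0.0051 for Usp18, -1.81 to -0.054 for Ifit1 and -0.43 to -0.029 for Irf9. The ranges of the 25 were Bst2 -0.82 to 0.20, Cmpk2 -1.36 to 0.27, Dhx58 -0.84 to 0.091, Ifi35 -0.39 to 0.26, Ifih1 -1.01 to 0.28, Ifit2 -2.16 to 0.18, Ifit3 -1.51 to 0.38, Irf7 -1.32 to 0.28, Isg20 -1.04 to 0.48, Mx1 -1.61 to 0.54, Oas1a -0.82 to 0.18, Oas2 -1.18 to 0.056, Oas3 -0.91 to 0.19, Oasl1 -1.40 to 0.0022, Oasl2 -0.95 to 0.24, Parp12 -0.69 to 0.020, Parp14 -0.94 to 0.093, Parp9 -1.06 to 0.014, Rsad2 -1.86 to 0.14, Rtp4 -0.85 to 0.10, Samhd1 -0.75 to 0.29, Sp100 -0.52 to 0.29, Trim30a -0.88 to 0.20, Xaf1 -1.04 to 0.13 and Zbp1 -1.54 to 0.32. The sign changed for 25 genes without wild-type array 3 and for 14 without mutant array 1, and leaving out another single array changed none. Without both arrays of an assay, which keeps the pairs, it changed for 5 genes (assay 1) and 1 gene (assay 3). All 30 kept their sign without assay 2. The replicate block changed no call of a member. Dim probe sets limit what can be said of Mx2 and Isg20.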
